A study of Homo sapiens with 6 samples.

Results

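Hephaestin and 9 further genes of cellular iron handling were followed in Hs578T cells, a human triple-negative breast cancer line with a mesenchymal morphology, after knockdown of the secreted protein CCN3. The 10 genes are HEPH, FTH1, FTL, TFRC, SLC40A1, SLC11A2, IREB2, ACO1, STEAP3 and NCOA4, found by symbol as 10 of the 46427 genes in the count table. They were chosen by their role in iron handling after the low HEPH counts of the CCN3 knockdown libraries were known. The difference between the knockdown and control libraries is therefore only described for them. They went through the same test as all genes, but their calls serve as description and their own adjusted p values are not printed. Control cells (shCTRL) carried a retroviral control shRNA and knockdown cells (shCCN3) carried CCN3 shRNA #2, both in the pSUPER-retro-puro vector and both kept after puromycin selection. All cells grew in DMEM with fetal bovine serum and antibiotics, and poly(A) RNA was sequenced from 3 independent biological replicates per group. A single CCN3 shRNA was sequenced, so that a change due to lower CCN3 and a change particular to this shRNA or to the selected cells cannot be told apart.

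Iron enters most cells bound to transferrin, through the transferrin receptor encoded by TFRC. In the endosome, ferric iron is reduced by STEAP3 and carried into the cytosol by the divalent metal transporter DMT1, the product of SLC11A2. Ferritin, a shell of heavy (FTH1) and light (FTL) chains, stores iron that is not used, and NCOA4 carries ferritin to the lysosome when iron is needed. Ferroportin, encoded by SLC40A1, is the iron exporter, and hephaestin is a membrane-bound copper ferroxidase that oxidizes exported iron so that transferrin can bind it. Hephaestin is known best from the intestinal epithelium, where its loss holds back the passage of dietary iron into the blood. The iron regulatory proteins, encoded by ACO1 and IREB2, bind a hairpin in several of these mRNAs, the iron-responsive element (IRE). Binding at the 5′ end of an mRNA holds back translation, and binding in the 3′ UTR protects the mRNA from decay.

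The IREs are shown because they set apart the members whose mRNA level is known to respond to iron through decay from those regulated in translation. They were found in GENCODE 29 transcripts (GRCh38) on the mRNA strand, with the letters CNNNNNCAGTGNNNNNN, a last loop base other than G, and at least 4 of 5 base pairs (G-U pairs included) in the upper stem. Capitals mark the loop, and each sequence runs 5′ to 3′ along the mRNA.
FTH1, 5′ UTR: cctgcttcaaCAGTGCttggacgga
FTL, 5′ UTR: cttgcttcaaCAGTGTttggacgga
SLC40A1, 5′ UTR: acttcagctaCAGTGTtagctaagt
TFRC, 3′ UTR, site 1: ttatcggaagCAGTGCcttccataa
TFRC, 3′ UTR, site 2: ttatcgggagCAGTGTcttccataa
TFRC, 3′ UTR, site 3: gtatcggagaCAGTGAtctccatat
TFRC, 3′ UTR, site 4: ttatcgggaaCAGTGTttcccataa
SLC11A2, 3′ UTR: ccatcagagcCAGTGTgtttctatg

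The cores of these hairpins lie at chr11:61967580-61967596 (minus strand) for FTH1, at chr19:48965341-48965357 (plus strand) for FTL and at chr2:189580667-189580683 (minus strand) for SLC40A1. The 4 TFRC cores lie on the minus strand of chromosome 3, from 196050985 to 196051001, from 196050581 to 196050597, from 196050516 to 196050532 and from 196050469 to 196050485. The SLC11A2 core lies at chr12:50988275-50988291 (minus strand), in the 3′ UTR of 5 of the 11 transcripts scanned. All of these sites form 5 pairs except that of SLC11A2, which forms 4. Matches were uncommon: of 19555 mRNAs, 1 per gene, 0.476% held one in the 5′ UTR, 2.76% held one in the 3′ UTR, and 3 mRNAs held 3 or more in the 3′ UTR. HEPH, IREB2 and ACO1 each held a single match with 4 pairs. That of HEPH lay in coding sequence in 4 of its 5 transcripts and in the 5′ UTR of the other, and those of IREB2 and ACO1 lay in the 3′ UTR of 1 of 2 and 1 of 3 transcripts. STEAP3 and NCOA4 held none.

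The libraries held between 56159110 and 68393177 counts, which puts 3 counts at 0.0435 to 0.0540 CPM, the unit of level used below, a count scaled to the TMM-adjusted size of its library. These limits cover counting error only. CCN3 mRNA, the target, was 101 ± 2.43 CPM in the shCTRL libraries and 47.0 ± 0.469 CPM in the shCCN3 libraries (here and below, ± gives the SD over the 3 libraries of a group). The mesenchymal markers VIM, FN1, SPARC, ZEB1 and CDH2 were expressed in all libraries, with VIM at 7778 ± 186 CPM in shCTRL and 7064 ± 477 CPM in shCCN3 cells. CDH2, which encodes N-cadherin, was called higher in shCCN3 cells, at 89.0 ± 6.55 CPM in shCTRL and 162 ± 17.3 CPM in shCCN3 libraries (log2 fold change 0.87, edgeR adjusted p = 9.06e-05), and the other 4 of these markers were not called. ESR1, CDH1 and EPCAM had at most 10 counts in a library, whereas PGR had 183, 204 and 180 counts in shCTRL and 241, 186 and 292 counts in shCCN3 libraries. Among the markers of other cells, HBB, ALB and PTPRC had at most 13 counts in a library, and CD14 and PECAM1 had similar mean levels in both groups, 0.520 and 0.456 CPM for CD14 and 3.57 and 3.43 CPM for PECAM1. Of the 17419 genes tested across the series with edgeR's quasi-likelihood test, 33.4% had a Benjamini-Hochberg adjusted p under 0.05. The shCCN3 replicate 2 library stood apart from the others of its group (chi-square per degree of freedom 38.1 and 46.5, against 9.98 between shCCN3 replicates 1 and 3).

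Of the 10 members, 9 had enough counts to be tested, and HEPH, FTH1 and STEAP3 were lower in shCCN3 cells with an adjusted p under 0.05 from edgeR, beside 17.3% of all genes lower. None was higher, beside 16.2% of all genes. In 4 members, HEPH, FTH1, FTL and STEAP3, the levels of the 2 groups did not overlap, beside 46.3% of all genes. The median log2 fold change of the 9 members was -0.02 and that of all genes tested was 0.01. These shares carry no weight as evidence, since the members were picked with this contrast known.

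**Figure D1:**
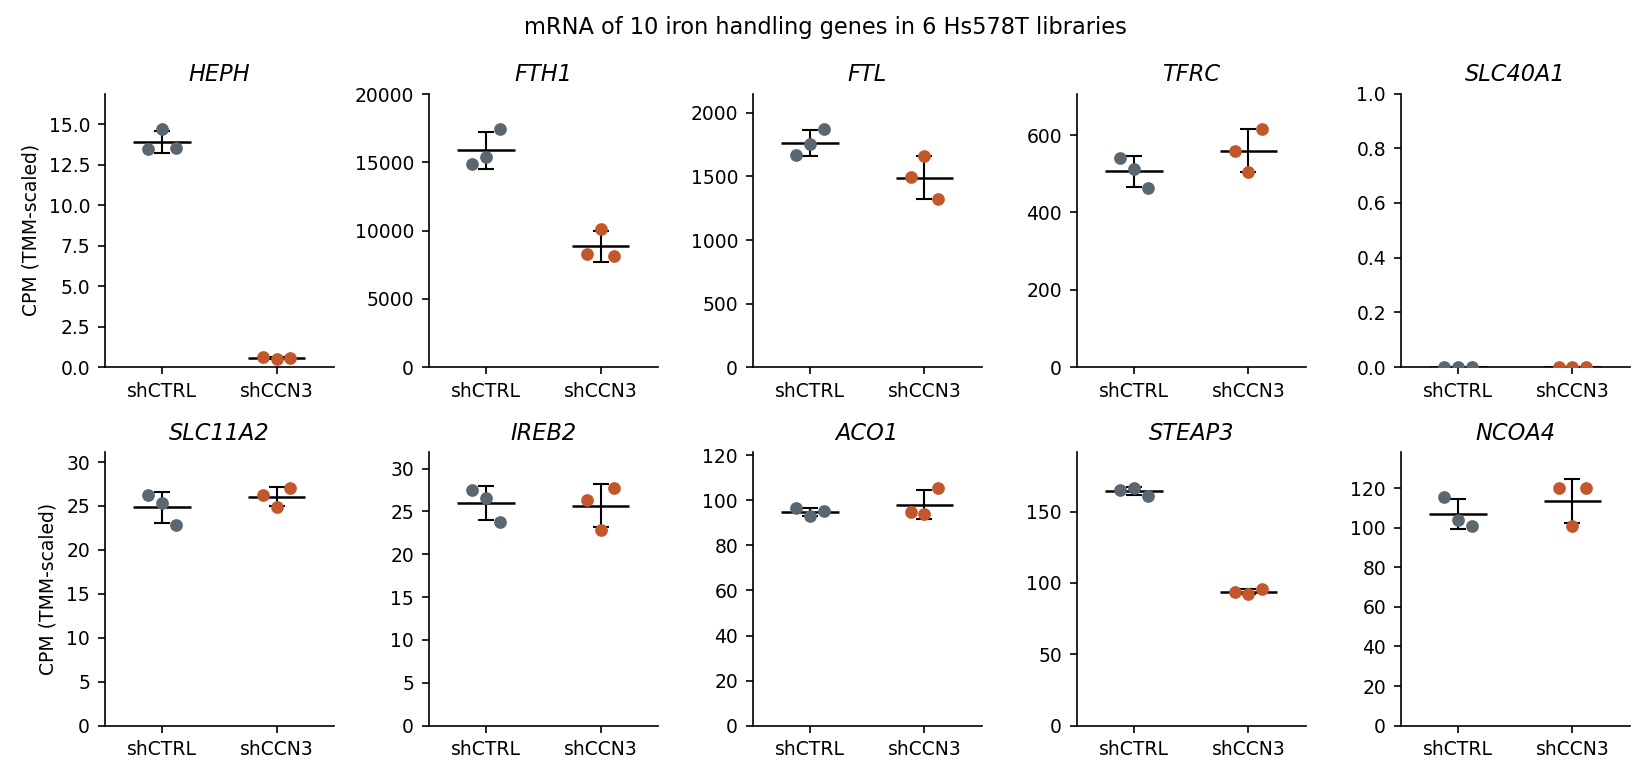
CPM (TMM-scaled) of the 10 genes in each of the 3 shCTRL and 3 shCCN3 libraries, with a separate vertical axis for each gene. Points are libraries, lines are means and bars are SD. All shCCN3 points of HEPH, FTH1, FTL and STEAP3 lie below all shCTRL points of the same gene, and SLC40A1 is at 0 throughout.

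Among the members, HEPH differed most between the groups. HEPH was counted 927, 923 and 908 times in the shCTRL libraries and 43, 27 and 38 times in the shCCN3 libraries. The shCTRL levels were 13.5, 14.7 and 13.5 CPM and the shCCN3 levels 0.624, 0.486 and 0.594 CPM. Every shCCN3 library thus lay far below every shCTRL library, and the libraries within a group were close to one another. HEPH fell from a mean of 13.9 ± 0.682 CPM to one of 0.568 ± 0.0726 CPM (SD, n = 3), which is -4.60 ± 0.13 (SE) on the log2 scale, or 24.3-fold lower. Only 44 of the 17419 genes tested (0.253%) had a lower log2 fold change. The HEPH counts of the shCCN3 libraries were still above the limit of 3 counts, so that the mRNA was strongly reduced but detected in every knockdown library. A lower level in every cell and loss of the mRNA from most cells cannot be told apart in bulk RNA.

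The other multicopper ferroxidases were nearly absent. CP, which encodes ceruloplasmin, the ferroxidase of plasma, had 0, 1 and 0 counts in shCTRL and 1, 6 and 5 counts in shCCN3 libraries. HEPHL1, which encodes the hephaestin homolog zyklopen, had no count in any library. In shCTRL cells HEPH was therefore the ferroxidase mRNA of this family with by far the most counts, and in shCCN3 cells no member of the family exceeded 43 counts in a library.

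SLC40A1, the exporter that works together with these ferroxidases, had no count in any of the 6 libraries and was not tested. A count of 0 allows up to 3 counts, or 0.0435 to 0.0540 CPM, in each library. HEPH was thus expressed in control cells in which ferroportin mRNA was not detected. HAMP, which encodes hepcidin, the hormone that removes ferroportin from the cell surface, had no count either.

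HEPH lies on chromosome X from 66162671 to 66268863 (GRCh38.p14). Over the 621 other genes tested on this chromosome the median of the log2 fold changes was 0.03. Over the 20 tested genes nearest to HEPH, 10 on each side, it was 0.06, with 8 of them below 0. On the left, MSN, LAS1L and ZC3H12B had log2 fold changes of 0.02, 0.16 and -0.11 and none passed the test (edgeR adjusted p 0.866, 0.109 and 0.829). On the right, PGK1P1 had a log2 fold change of -0.24 and did not pass the test either (edgeR adjusted p = 0.353). HEPH was thus low beside neighbours of which these 4 were not called. MTMR8, a myotubularin-related gene 5 tested genes to the left, was named after its values were seen, as the neighbour with a fold change near that of HEPH. It had 56, 76 and 75 counts in shCTRL and 0, 3 and 5 counts in shCCN3 libraries.

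**Figure D2:**
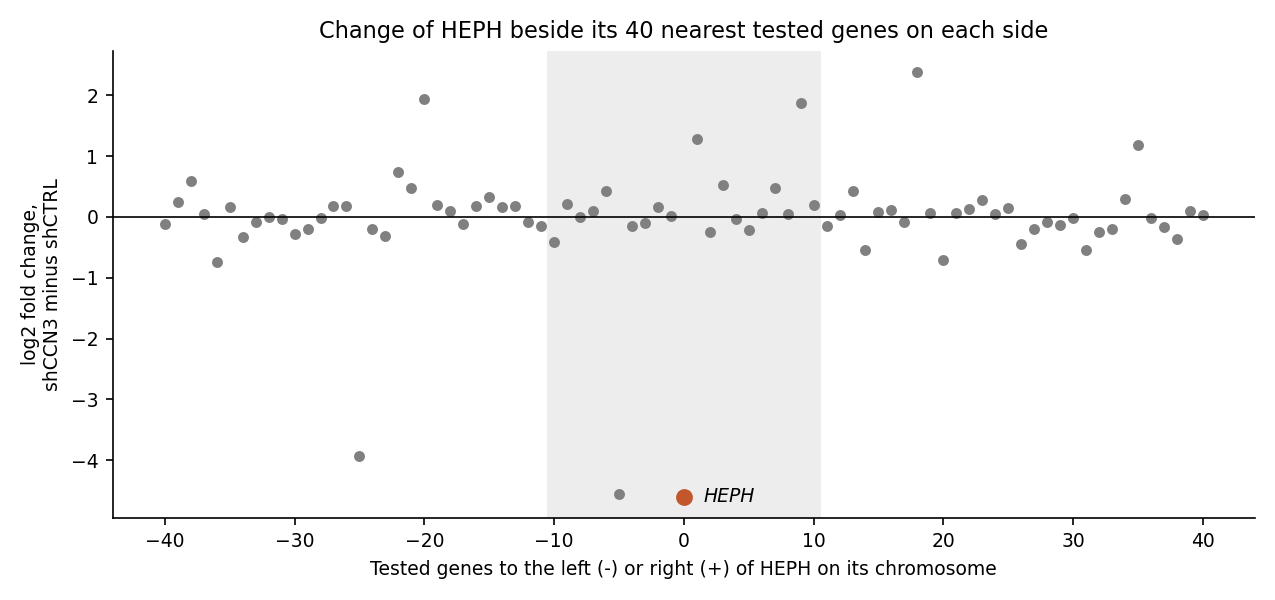
Log2 fold change (shCCN3 minus shCTRL) of HEPH and of the 40 tested genes nearest to it on each side of chromosome X, in gene order. The shaded band holds the 10 nearest on each side, whose median is 0.06, while HEPH lies at -4.60 and MTMR8, the low point left of it, at -4.55.

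The 5 genes whose levels over the 6 libraries were most like those of HEPH, by the Euclidean distance of log2 CPM centred on the shCTRL mean, were HHIPL1, LINC00654, TSPOAP1, EEF1A2 and ADA2. HHIPL1, at a distance of 0.347, had 253, 233 and 260 counts in shCTRL and 11, 8 and 12 counts in shCCN3 libraries. EEF1A2, which encodes a tissue-restricted form of translation elongation factor 1 alpha, had 9366, 9035 and 10417 counts in shCTRL and 476, 475 and 430 counts in shCCN3 libraries, and was the most abundant of the 5. ADA2, an extracellular adenosine deaminase, had 947, 952 and 868 counts in shCTRL and 31, 30 and 22 counts in shCCN3 libraries, close to the counts of HEPH in both groups. LINC00654 and TSPOAP1 had 12 to 17 counts in each shCTRL library and none in the shCCN3 libraries. All 5 lie on chromosomes other than X. This likeness rests on 6 libraries and mostly on the difference between the 2 groups.

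Ferritin heavy chain mRNA was the most abundant mRNA of all genes in both groups. FTH1 levels were 14870, 15370 and 17430 CPM in the shCTRL libraries and 8272, 10150 and 8125 CPM in the shCCN3 libraries. Every shCCN3 library lay below every shCTRL library, with the shCCN3 replicate 2 library the highest of its group. FTH1 fell from a mean of 15890 ± 1356 CPM to one of 8848 ± 1127 CPM (SD, n = 3), which is -0.84 ± 0.09 (SE) on the log2 scale, or 1.80-fold lower. FTH1 took 1.49, 1.53 and 1.71% of all counts in shCTRL and 0.835, 1.00 and 0.828% in shCCN3 libraries.

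FTL, the light chain, moved less. Its levels were 1670, 1752 and 1872 CPM in shCTRL and 1494, 1661 and 1319 CPM in shCCN3 libraries. The groups did not overlap, but the highest shCCN3 library, replicate 2, lay close below the lowest shCTRL library. The means were 1764 ± 102 CPM and 1492 ± 171 CPM (SD, n = 3), and the log2 difference of -0.24 ± 0.09 (SE) was not called. Among all genes FTL ranked 39 by mean level in shCTRL and 51 in shCCN3 cells. Its call depended on the setting, since FTL was called by DESeq2 and, in edgeR, without shCCN3 replicate 2, when the log2 fold change was -0.32.

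The balance of the ferritin chains was also read within each library, where it is independent of the library total. FTH1 counts per FTL count were 8.91, 8.77 and 9.31 in shCTRL and 5.54, 6.11 and 6.16 in shCCN3 libraries. Per length of the exons, the ratios were 3.85, 3.79 and 4.03 in shCTRL and 2.39, 2.64 and 2.66 in shCCN3 libraries. The length used merges the exons of all annotated transcripts of a gene, 2030 bases for FTH1 and 878 for FTL. The ratio per length is therefore not a number of heavy chain mRNAs per light chain mRNA. The mean of the latter ratio was 3.89 ± 0.122 for shCTRL and 2.57 ± 0.150 for shCCN3 (SD, n = 3). Heavy chain mRNA exceeded light chain mRNA in every library, and the excess was smaller in every shCCN3 library than in any shCTRL library. FTH1 and FTL carry 5′ IREs with the same loop but for its last base, as printed above, and nearly identical stems.

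**Figure D3:**
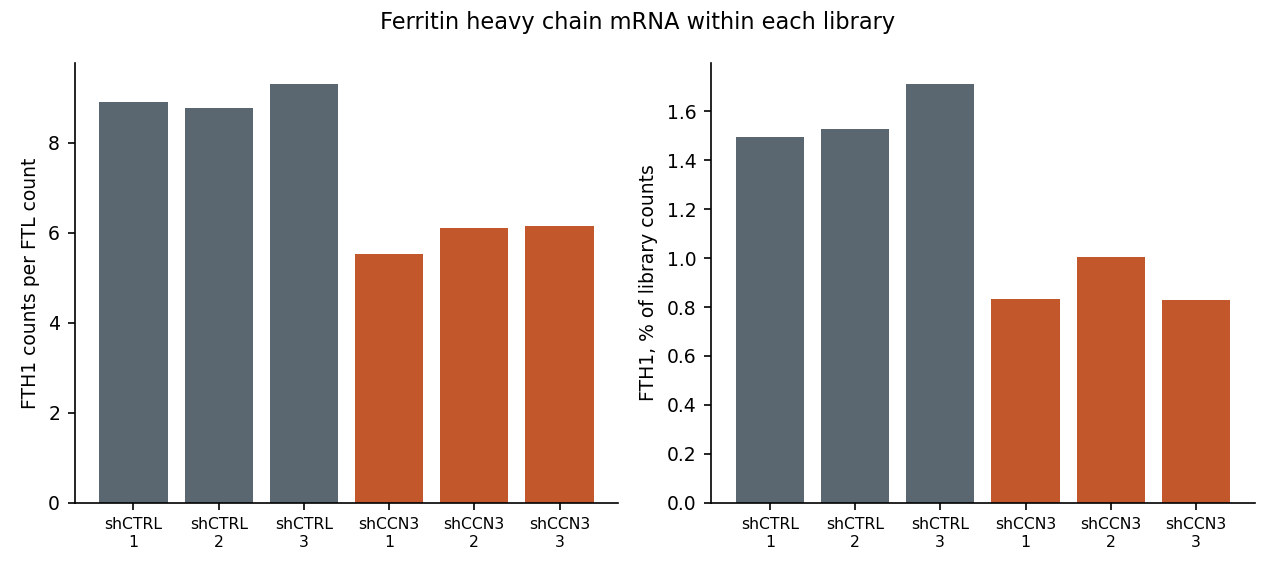
FTH1 counts per FTL count (left) and FTH1 as a percentage of all counts (right) in each library, as bars from 0. The shCTRL libraries lie between 8.77 and 9.31 FTH1 counts per FTL count, all above the shCCN3 libraries, which lie between 5.54 and 6.16.

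FTH1 has many processed pseudogenes with sequences close to its own, and how reads shared with them were assigned is not given in the sources used here. The table lists 20 FTH1 pseudogenes, of which 17 had counts, and their summed counts were 0.575 to 0.714% of those of FTH1 in each library. Of the 14 that were tested, 11 were lower in shCCN3 cells by the edgeR test and none was higher. Their median on the log2 scale was -0.86, near the value of FTH1. Reads from FTH1 that were assigned to these copies cannot be told apart from transcripts of the copies. The 10 FTL pseudogenes had at most 26 counts in all in a library.

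NCOA4, the receptor for ferritin turnover, had 115, 104 and 101 CPM in shCTRL and 120, 101 and 120 CPM in shCCN3 libraries. The groups overlapped, with means of 107 ± 7.72 CPM and 114 ± 11.2 CPM (SD, n = 3) that differ by 0.09 ± 0.09 (SE) on the log2 scale. FTMT, the mitochondrial ferritin, had no count in any library.

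On the uptake side, STEAP3 was the member with the clearest separation after HEPH. STEAP3 levels were 165, 167 and 161 CPM in shCTRL and 93.5, 92.5 and 95.7 CPM in shCCN3 libraries. All 3 knockdown libraries lay close together and far below the controls. The mean fell from 164 ± 2.82 CPM to 93.9 ± 1.62 CPM (SD, n = 3), which is -0.81 ± 0.05 (SE) on the log2 scale, or 1.75-fold lower. STEAP3 and FTH1 thus had fold changes of similar size, with 6.72 and 6.22% of all genes tested lower than each.

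TFRC, the transferrin receptor, had 542, 514 and 464 CPM in shCTRL and 560, 505 and 615 CPM in shCCN3 libraries. The shCCN3 replicate 2 library lay below 2 of the controls, so the groups overlapped. With means of 507 ± 39.7 CPM and 560 ± 55.3 CPM (SD, n = 3), the log2 fold change of 0.15 ± 0.09 (SE) was not called in the fit of all 6 libraries. Without shCCN3 replicate 2, TFRC was called by edgeR, with a log2 fold change of 0.22.

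SLC11A2 had 26.3, 25.4 and 22.8 CPM in shCTRL and 26.2, 24.9 and 27.1 CPM in shCCN3 libraries, a log2 fold change of 0.07 (standard error 0.08). The groups overlapped. TFRC and SLC11A2, whose 3′ IREs are printed above, were therefore not called in either direction in all 6 libraries. FTH1 and FTL, the detected members with a printed 5′ IRE, had lower means in shCCN3 cells, and FTH1 was called. Over all genes, 33.4% were called and 17.3% were called lower. IREB2 and ACO1, which held a 3′ UTR match with 4 pairs, were not called either. The SLC11A2 counts cover all its transcripts, and 5 of the 11 scanned hold the IRE. Whether calls differ by the side of the IRE was not tested.

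The iron regulatory proteins themselves had much the same mRNA levels in the libraries of both groups. ACO1, which doubles as the cytosolic aconitase when it holds an iron-sulfur cluster, had 96.5, 93.1 and 95.3 CPM in shCTRL and 94.7, 93.9 and 106 CPM in shCCN3 libraries, a log2 fold change of 0.05 (standard error 0.06). IREB2, which is degraded in iron-replete cells, had 27.5, 26.6 and 23.8 CPM in shCTRL and 26.3, 22.9 and 27.8 CPM in shCCN3 libraries, a log2 fold change of -0.02 (standard error 0.09). Both genes overlapped between the groups. The sign of either value changed when single libraries were left out, with a range of -0.08 to 0.06 for IREB2 and -0.01 to 0.08 for ACO1. FBXL5, the ubiquitin ligase subunit that senses iron and targets IREB2 for degradation, was 73.9 ± 0.555 CPM (SD, n = 3) in shCTRL and 70.6 ± 2.31 CPM in shCCN3 cells (edgeR adjusted p = 0.402).

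Per kilobase of exon, the order of levels in shCTRL cells was FTH1 (7827 ± 668 CPM per kb), FTL (2010 ± 116), TFRC (64.2 ± 5.03), STEAP3 (36.0 ± 0.619), NCOA4 (26.2 ± 1.89), ACO1 (12.6 ± 0.232), SLC11A2 (2.45 ± 0.176), IREB2 (2.40 ± 0.180), HEPH (1.96 ± 0.0960) and SLC40A1 at 0. SLC11A2 and IREB2 did not differ beyond their SD, and the other neighbours in the order did. The lengths merge the exons of all annotated transcripts of a gene, so the order across genes depends on them. In shCCN3 cells STEAP3, at 20.6 ± 0.356 CPM per kb, lay below NCOA4, at 27.8 ± 2.74. HEPH, at 0.0799 ± 0.0102, moved from near the level of IREB2 and SLC11A2 to far below it. The remaining order was the same in both groups, with SLC11A2 (2.57 ± 0.108) and IREB2 (2.37 ± 0.233) again within their SD.

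No tested member lies in a stretch of chromosome that was low as a whole. Over the chromosomes of the 9 tested members, the medians of all tested genes lay between -0.07 and 0.04 on the log2 scale. The 20 nearest tested genes had a median of -0.03 around FTH1, of -0.01 around FTL and of 0.13 around STEAP3.

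Beyond the members, 91 other iron genes in 11 lists were read in the same edgeR fit, and 79 had enough counts. Of these, 23 were lower and 7 were higher with an adjusted p under 0.05, and 49 were not called. These are 29.1 and 8.86% of the 79, beside 17.3% of all genes lower and 16.2% higher. The median of the 79 on the log2 scale was -0.08, beside 0.01 for all genes. The same shares of all genes stand beside the counts of each list below. The lists were written with earlier results of these data known. Genes of these lists given below without a value were named after their values were seen. Of the 5 tested on chromosome 7, where the 821 tested genes had a median of -0.43 on the log2 scale, 4 were lower (STEAP1, STEAP2, CUL1 and ABCB8). Off chromosome 7, 19 of 74 were lower (25.7%) and 7 were higher. The number of higher calls changed with the fit. It was 3, 2 and 3 without shCTRL replicate 1, 2 or 3, 4 without shCCN3 replicate 1 and 4 in a fit blocked by replicate number. Calls over all genes also fell in these fits, from 5825 to 4824, 4181, 4683, 4484 and 4887 in the same order.

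In the list of the transferrin cycle and ferrireductases, 3 of 8 tested genes were lower and none was higher, and all 3 belong to ferrireductase families. STEAP1, a STEAP family protein that lacks the reductase domain of STEAP3, fell from 47.0 ± 1.79 to 17.9 ± 1.22 CPM (log2 fold change -1.40, standard error 0.07, edgeR adjusted p = 1.75e-06). STEAP2, a metalloreductase of the same family, fell from 13.4 ± 1.28 to 7.33 ± 0.353 CPM (log2 fold change -0.87, standard error 0.10, edgeR adjusted p = 0.00015). With STEAP3, all 3 detected STEAP genes were therefore lower in shCCN3 cells, and STEAP4 had no count. Less the median of chromosome 7, the log2 fold change was -0.97 for STEAP1 and -0.44 for STEAP2. CYBRD1, the duodenal cytochrome b reductase, fell from 38.8 ± 4.11 to 23.0 ± 2.60 CPM (log2 fold change -0.75, edgeR adjusted p = 0.000533). TF, which encodes transferrin, had 4, 6 and 10 counts in shCTRL and 17, 11 and 17 counts in shCCN3 libraries (edgeR adjusted p = 0.0717), and TFR2 had at most 2 counts in a library.

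Among the other iron importers and carriers, 3 of 8 tested genes were higher (SLC39A8, LTF and PCBP1) and 1 was lower (SLC22A17). LTF and SLC22A17, also named after their values were seen, had low counts, with means below 1 CPM. LTF had 0, 5 and 10 counts in shCTRL and 38, 22 and 41 counts in shCCN3 libraries. SLC22A17 had 53, 30 and 49 counts in shCTRL and 13, 10 and 0 counts in shCCN3 libraries. SLC39A14, the transporter ZIP14 for iron that is not bound to transferrin, had 165, 157 and 143 CPM in shCTRL and 153, 142 and 175 CPM in shCCN3 libraries and overlapped between the groups (edgeR adjusted p = 0.892). In the storage list, HERC2, which encodes a ubiquitin ligase of NCOA4, was the 1 of 2 tested genes that was higher. In the list of export and the hepcidin axis, 1 of 4 tested genes was higher (FURIN) and 1 was lower. The latter, BMP2, a ligand that induces hepcidin in the liver, fell with a log2 fold change of -0.62 (edgeR adjusted p = 0.000675), from 14.6 ± 0.678 to 9.51 ± 0.746 CPM. In the iron sensing list, 1 of 4 tested genes was lower. This was CUL1, the scaffold of the ubiquitin ligase to which FBXL5 belongs, with a log2 fold change of -0.52 (edgeR adjusted p = 0.000132) and of -0.09 less the median of chromosome 7. In the list of other mRNAs with known IREs, 2 of 5 tested genes were lower. PFN2, a profilin, fell with a log2 fold change of -0.52 (edgeR adjusted p = 8.78e-05), and held no match to the IRE letters.

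Of the 19 tested genes of the 2 haem lists, 10 were lower (52.6%), beside 17.3% of all genes. None was higher, beside 16.2% of all genes. Whether the haem genes differ as a set was not tested. FLVCR2, a choline transporter first described as a haem importer, fell from 5.47 ± 0.264 to 1.97 ± 0.303 CPM (log2 fold change -1.47, standard error 0.14, edgeR adjusted p = 5.99e-05). HMOX1, haem oxygenase 1, which frees iron from haem, fell from 180 ± 5.37 to 124 ± 8.91 CPM (log2 fold change -0.54, standard error 0.07, edgeR adjusted p = 0.00026). BLVRB, a biliverdin reductase that acts downstream of it, fell with a log2 fold change of -0.57 (edgeR adjusted p = 0.00364), LRP1, the receptor for the haem-hemopexin complex, with one of -0.59 (edgeR adjusted p = 0.00311), and SLC48A1, which carries haem out of the lysosome, with one of -0.51 (edgeR adjusted p = 0.00076). In haem synthesis, 4 of 8 genes were lower, among them ALAS1, UROS and UROD. UROD, uroporphyrinogen decarboxylase, fell with a log2 fold change of -0.46 (edgeR adjusted p = 0.00304). HMOX1 and FTH1 both had lower levels in every shCCN3 library than in any shCTRL library. The groups did not overlap, in either direction, in 46.3% of all genes tested. A link between the changes of HMOX1 and FTH1 was not tested.

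In the list of mitochondrial iron import and iron-sulfur cluster assembly, 4 of 19 genes were lower (SLC25A37, ISCU, ISCA1 and ABCB8) and 2 were higher (LYRM4 and IBA57), and in that of cytosolic assembly 1 of 10 was lower (CIAO2B). ISCU, the scaffold on which the clusters are built, fell with a log2 fold change of -0.51 (edgeR adjusted p = 0.00116), and ABCB8, a mitochondrial transporter, with one of -0.49 (edgeR adjusted p = 0.000653), or of -0.06 less the median of chromosome 7. IBA57, a late assembly factor, rose from 5.68 ± 0.248 to 8.32 ± 1.73 CPM (log2 fold change 0.55, edgeR adjusted p = 0.017), a call that was lost without shCTRL replicate 2 or 3.

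**Figure D4:**
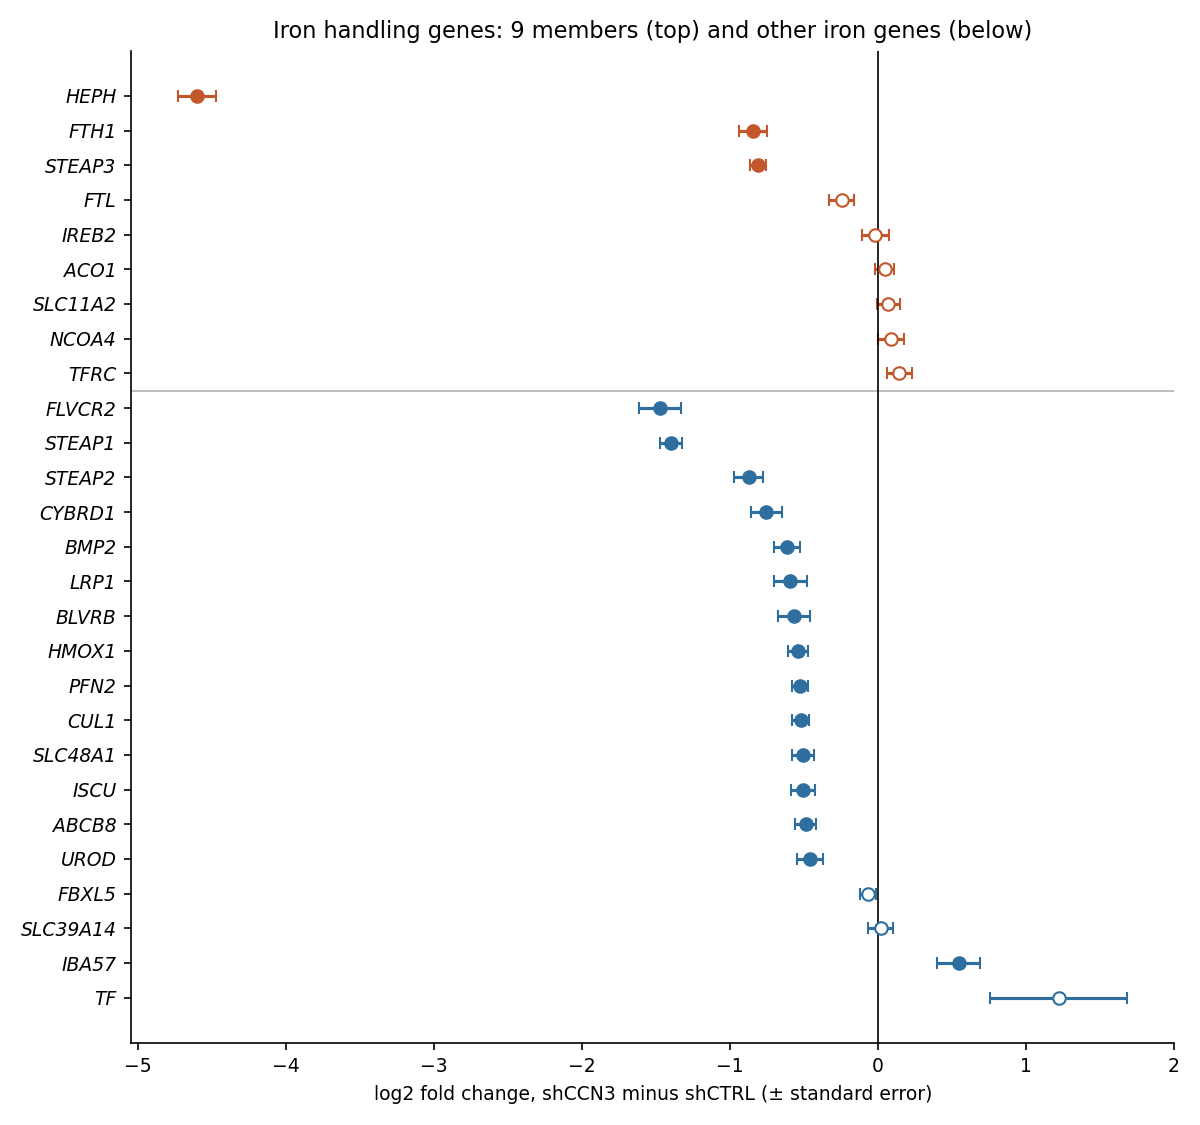
Log2 fold change (shCCN3 minus shCTRL, with standard error) of the 9 tested members (top) and of the other iron genes named here (below). Filled points had an adjusted p under 0.05 from edgeR. HEPH lies at -4.60, apart from FTH1 and STEAP3 at -0.84 and -0.81, and the other 6 members lie between -0.24 and 0.15.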

How the data were processed

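Raw read counts per gene were deposited by the authors in 1 table (46427 genes by NCBI Gene ID and symbol, 6 libraries), without normalization. The submitters' processing notes name bcl2fastq 2.20.0, Trimmomatic, HISAT2 2.1.0, StringTie 2.1.3d, DESeq2 and GRCh38. The annotation, counting mode and use of strand are not given in the sources used here, so that genes with near-identical copies or overlaps are uncertain. Libraries were grouped by their labels. Counts were TMM-scaled, filtered with filterByExpr by group and tested with edgeR 4.0.16 (quasi-likelihood, Benjamini-Hochberg over 17419 genes, called at an adjusted p under 0.05) in R 4.3.3. The scripts were tested on simulated data. Each SE of a log2 fold change was the absolute log2 fold change divided by the square root of the quasi-likelihood F statistic. The SE of HEPH was 0.13 in this edgeR fit, and 0.18 as given by DESeq2 and by limma-voom. The members, lists and alternatives were chosen with earlier results of these data known. Other iron genes were named if called, without overlap between the groups and with a mean level of 1 CPM or more (28 genes, of which the 15 with the largest change), and 13 were named whatever their values. Positions are from RefSeq (GRCh38.p14), exon lengths, merged over all transcripts of a gene, from GENCODE 29. Alternatives were 13 fits, including DESeq2 1.42.0 and limma-voom (limma 3.58.1), and the difference of mean log2(CPM + 1). Same-numbered libraries did not deviate together (correlations 0.0782, -0.0170 and -0.0308), so the numbers were not used to pair them. The values of some genes named by these rules are not reported here.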

Additional observations from a re-analysis of the deposited data

How the results depend on the processing

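HEPH, FTH1 and STEAP3 were called lower in all 13 alternative fits. All fits used the same libraries, and the members were picked with this contrast known. Calls of members in these fits therefore describe the dependence on processing and are no test. With single libraries left out, the log2 fold changes of HEPH, FTH1 and STEAP3 lay between -4.67 and -4.50, between -0.95 and -0.77, and between -0.82 and -0.79. On the log2(CPM + 1) scale the difference for HEPH was -3.25, as the added 1 exceeds its level in shCCN3 cells. The number of members called was 3 to 5 over the fits that left out 1 library, 5 being reached without shCCN3 replicate 2, and 4 with DESeq2. The log2 fold change of IREB2 ranged from -0.0770 to 0.0614 over these fits, above 0 without shCTRL replicate 1, shCTRL replicate 2 or shCCN3 replicate 2. That of ACO1 ranged from -0.00970 to 0.0794, below 0 without shCCN3 replicate 3, and that of SLC39A14 from -0.0666 to 0.0873, below 0 without shCTRL replicate 3 or shCCN3 replicate 3. The other iron genes called higher were 7, 4 with a replicate block, and 2 to 9 with single libraries left out, while those called lower were 22 with the block and 19 to 29 with libraries left out. The block changed no call of a member. Of 37 other genes followed, 24 kept direction and side of the threshold in every fit that tested them. The calls of PCBP1, HERC2, FURIN and PGRMC1 were lost with the block. With 1 library or another left out, calls were lost, among them those of SLC22A17, PCBP1, HERC2, FURIN, LYRM4, IBA57, CIAO2B, UROS and PGRMC1, while none was lost without shCCN3 replicate 2. The cause of these changes was not tested. For SLC40A1, CP, HEPHL1, HAMP and FTMT, depth allows no statement below 3 counts per library.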
